A study of Homo sapiens with 4 samples.

Results

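The cytosolic heat shock proteins are described here through 10 genes chosen by symbol among the 33538 genes listed. They are HSPA1A, HSPA1B and HSPA8 of the HSP70 family, the HSP70 partners HSPH1, DNAJB1 and BAG3, HSP90AA1 and HSP90AB1 of the HSP90 family, and the small heat shock proteins HSPB1 and HSPB6. All 10 were found in the files. The measurement was single-cell RNA sequencing of HCEC 1CT, human colonic epithelial cells that were immortalised in culture, grown in medium with EGF, hydrocortisone, insulin, transferrin, selenite and low serum. Every group received an shRNA by viral transduction and puromycin selection: the control groups a scrambled sequence (shScr) and the others a sequence against the tumour suppressor APC (shAPC). Cells were harvested 3 or 7 days after transduction and kept on ice in PBS until the libraries were made. Each of the 4 groups held 1 library (shScr and shAPC at day 3, then shScr and shAPC at day 7, the order in which 4 values are given throughout), so that no difference has a replicate check, none was tested and every interval covers counting error only. The shAPC groups rest on a single shRNA sequence per the study's methods.

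Heat shock proteins are chaperones that bind unfolded or partly folded proteins. Small heat shock proteins hold such proteins without using ATP. HSP70 then refolds them in cycles of ATP hydrolysis that J-domain proteins such as DNAJB1 start and that exchange factors such as HSPH1 and BAG3 end, and HSP90 completes the folding of kinases, receptors and other clients. HSPA8 and HSP90AB1 are regarded as the constitutive forms of their families. HSPA1A, HSPA1B, DNAJB1, HSPH1 and BAG3 are the classical targets of heat shock factor 1 (HSF1), and HSP90AA1 is the more inducible HSP90.

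Levels are given as CPM, the unique molecular identifiers (UMIs, distinct molecules) of a gene per 1e6 UMIs summed over the kept cells of a library. Kept cells numbered 1116 and 788 at day 3 and 2600 and 1478 at day 7 (shScr, then shAPC), with 28451455 to 39797418 UMIs per library. Their median depth was 1330 UMIs in shScr day 7 and 21029.5 to 49685.5 in the other 3 libraries. The 5% limit on mitochondrial UMIs removed 51.3% of barcodes in shAPC day 7 and 24.1% to 28.8% in the others. Pairs of libraries shared 2 to 25 deposited barcodes, and 68 barcodes occurred in more than 1 library. At day 3 the targeted gene APC was 5.52 CPM in shAPC against 16.1 in shScr (log2 ratio -1.54, 95% interval -1.78 to -1.31) and at day 7 it was 6.61 against 19.1 (log2 ratio -1.53, -1.78 to -1.29). Markers of the epithelial label were low or nearly absent: KRT8 was 9.57 to 19.4 CPM, CLDN7 6.26 to 16.9, KRT18 3.02 to 7.13 and KRT19 2.34 to 5.72. The defining EPCAM had at most 2 UMIs and CDH1 at most 1 UMI per library, and CDX2 had 0 UMIs in all 4. The mesenchymal genes VIM and COL1A1 were 4010 to 5303 and 927 to 1519 CPM.

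Together the 10 genes took 0.227% (shScr) and 0.251% (shAPC) of all UMIs at day 3, and 0.274% (shScr) and 0.260% (shAPC) at day 7. Because the 3′ kit counts 1 tag per transcript, CPM was not divided by transcript length. The order of genes given here is that of CPM, and differences between genes in capture or read assignment were not measured. HSPB1 stood highest in all 4 libraries. HSPA8 and both HSP90 genes formed the next tier, HSPH1, DNAJB1, BAG3 and HSPB6 the one below it, and HSPA1A and HSPA1B were lowest in every library. Within this lower tier neighbours often could not be separated: in shScr day 3 the intervals of DNAJB1 and BAG3 overlapped, as did those of HSPH1 with BAG3 and with HSPB6, and in shAPC day 7 the intervals of BAG3, HSPH1, HSPB6 and DNAJB1 all overlapped. The HSP90AA1 and HSP90AB1 intervals also overlapped in shAPC day 7, and only there.

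**Figure D1:**
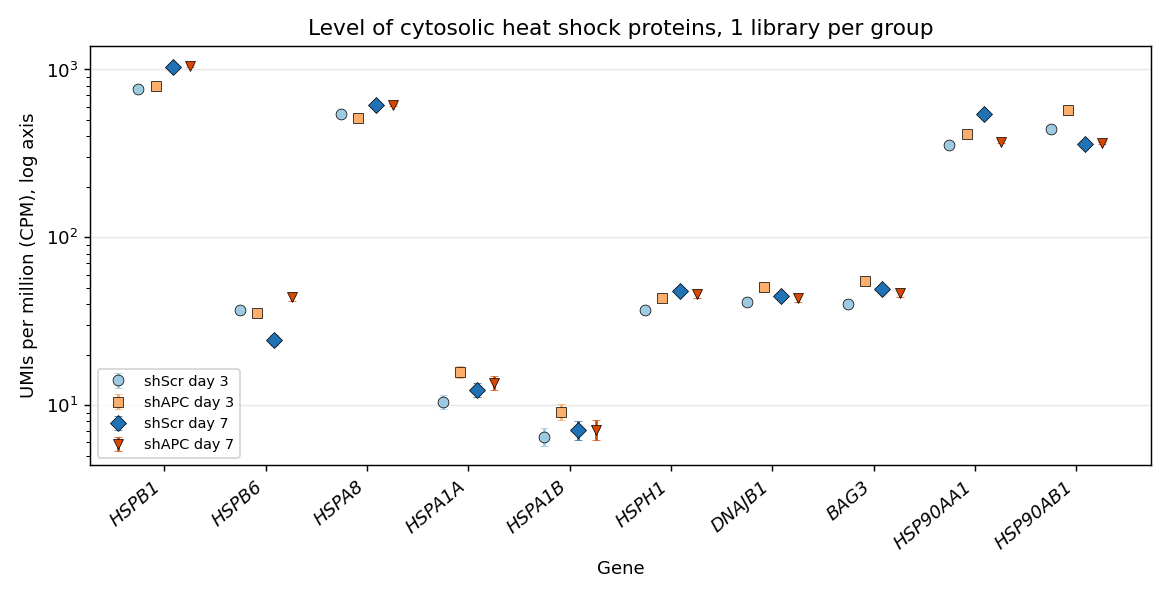
Level of each gene in CPM (log axis) in the 4 libraries, with 95% Poisson intervals that cover counting error only. HSPB1 lies between 761 and 1052 CPM, and HSPA1B between 6.46 and 9.13 CPM.

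The stress-inducible HSP70 genes were scarce beside the constitutive one. HSPA8, the housekeeping HSP70 of the cytosol, was 544 CPM (95% interval 537 to 551) in shScr day 3, 516 (509 to 524) in shAPC day 3, 615 (606 to 624) in shScr day 7 and 612 (603 to 621) in shAPC day 7. HSPA1A was 10.5, 15.8, 12.3 and 13.5 CPM in that order. HSPA1B was 6.46, 9.13, 7.08 and 7.13 CPM in that order. HSPA8 therefore had 20.7 (shAPC day 3) to 32.2 times (shScr day 3) the UMIs of the inducible pair. HSPA6, an HSP70 gene known for being nearly silent without stress, had 3 to 8 UMIs per library.

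HSPA1A and HSPA1B lie next to each other on chromosome 6 (hg38, GENCODE 44), at chr6:31815543-31817946 and chr6:31827738-31830254, both on the plus strand. Their main annotated transcripts of 2400 and 2517 bases are 95.6% identical over the aligned part, and 73.0% of all 90-base windows of HSPA1A occur unchanged in HSPA1B. In the last 500 bases, nearest to where a 3′ kit counts, this share is 14.6%, so that part of the reads could belong to either gene. How the counting treated them is not given in the sources used here. If such reads were left out, the summed level of the pair is too low and its distance to HSPA8 too large. The split is uncertain as well: HSPA1B held 38.2%, 36.7%, 36.5% and 34.5% of the pair's UMIs in the 4 libraries, with intervals that all overlapped. By contrast no 90-base window of HSPA1A occurs in HSPA8, and none of HSP90AA1 in HSP90AB1.

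A motif that most of these genes, though not all, have in common was sought in their promoters. HSF1 binds inverted repeats of the unit NGAAN, so GAANNTTC and TTCNNGAA were sought from 250 bases before to 50 after each RefSeq start (GRCh38.p14). Either motif reads the same on both strands, and matches that overlap form 3 units in a row. At least 1 window of 8 of the 10 genes held a match, against 16.2% of 27305 genes in the table, and 3 units in a row occurred in HSPA8, HSP90AA1 and HSP90AB1, against 0.608% of all genes. HSPH1 and BAG3 had no match in these windows. The stretches shown hold upstream matches of 6 genes, for HSPA8 those nearest to the start, 5′ to 3′ on the gene's strand, with the GAA and TTC units of each match in capitals. They show the single site that the HSPA1 pair has in common, the arrays of HSPA8 and the HSP90 genes, and the 2 separate sites of DNAJB1.
HSPA1A, chr6:31815429-31815452, plus strand: aaaccctgGAAtaTTCccgacctg
HSPA1B, chr6:31827625-31827648, plus strand: aacccctgGAAtaTTCccgacctg
HSPA8, chr11:123062171-123062199, minus strand: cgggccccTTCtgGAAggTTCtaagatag
HSP90AA1, chr14:102087097-102087140, minus strand: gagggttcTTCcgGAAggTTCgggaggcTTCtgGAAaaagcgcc
HSP90AB1, chr6:44247770-44247851, plus strand: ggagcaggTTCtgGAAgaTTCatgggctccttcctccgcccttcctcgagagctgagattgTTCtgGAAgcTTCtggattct
DNAJB1, chr19:14518429-14518482, minus strand: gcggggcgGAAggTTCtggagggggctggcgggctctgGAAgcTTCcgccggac
The whole windows of HSPA1A and HSPA1B were 92.6% identical. The HSPA8 stretch also lies in an annotated exon of another HSPA8 transcript. HSP90AA1, HSP90AB1 and DNAJB1 have 2, 3 and 3 starts in the table, and only the start shown carried an upstream match. Another start of DNAJB1 had 1 match that began 2 bases after it, which is not shown, nor are the matches of HSPB1 and HSPB6. The matches are letters in a window, and binding was not measured.

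The first comparison asked whether depletion of APC altered the chaperones at day 3. None of the 8 genes of at least 20 CPM lay 2-fold or more apart between shAPC day 3 and shScr day 3, and of all 5175 genes that reached this level 4.29% did (log2 ratio with a pseudocount of 1 CPM). HSPA1A and HSPA1B stayed under 20 CPM and were not counted. All tested genes had a median log2 ratio of 0.28, and the 8 genes had one of 0.23, which is -0.04 relative to that median. The HSP70 partners stood at ratios of the same order: BAG3, 40.2 CPM in shScr and 55.1 in shAPC, had a log2 ratio of 0.45 (0.36 to 0.55), DNAJB1 had 0.30 (0.21 to 0.40) and HSPH1 had 0.24 (0.14 to 0.35). With TMM or DESeq2 scaling, DNAJB1, HSPH1, HSP90AA1 and HSPB1 turned to values between -0.30 and -0.06, so that their direction at day 3 depends on the scaling.

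Among the most abundant chaperones at day 3, HSP90AB1 was 439 CPM in shScr and 571 in shAPC, a log2 ratio of 0.38 (0.35 to 0.41) that came to 0.10 relative to all genes and to about 0 with TMM scaling. HSP90AA1 was 353 and 415 CPM (log2 ratio 0.23, 0.20 to 0.27). HSPB1 was 761 and 802 CPM (0.08, 0.05 to 0.10). HSPA8 had a log2 ratio of -0.08 (-0.10 to -0.05), a value under which 15.8% of all tested genes lay, and negative under all 13 alternatives. HSPB6 was 36.6 and 35.6 CPM, and its interval of -0.15 to 0.07 included 0. For HSPA1A the log2 ratio was 0.59 (0.41 to 0.78) and for HSPA1B 0.50 (0.26 to 0.74), on 257 to 551 UMIs per library. When each cell counted alike, through the mean of CPM taken over cells, the HSPA1A value was -0.01 in place of 0.55 on the scale with the pseudocount.

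At day 7 the log2 ratios of 8 of the 10 genes lay between -0.08 and 0.14 by CPM. HSPB6 and HSP90AA1 stood apart from them in opposite directions. The narrow band of the 8 depended on the processing, and each turned sign under at least 1 of the 13 alternatives. HSPA1A ran from -0.43 to 0.39, HSPA1B from -0.51 to 0.29, HSPA8 from -0.39 to 0.09 and HSP90AB1 from -0.27 to 0.11. BAG3 ran from -0.31 to 0.07, HSPB1 from -0.21 to 0.12, HSPH1 from -0.19 to 0.04 and DNAJB1 from -0.13 to 0.06. Again none of the 8 tested genes passed 2-fold, against 2.56% of 4573 genes. The median over all genes was -0.10 and that over the 8 genes -0.02.

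HSPB6, also called HSP20, is a small heat shock protein best known from muscle. It was 24.5 CPM (22.8 to 26.3) in shScr day 7 and 44.2 CPM (41.8 to 46.7) in shAPC day 7, on 764 and 1258 UMIs. The log2 ratio was 0.85 (0.72 to 0.99), a 1.81-fold difference, and 98.8% of all tested genes had a lower ratio. It stayed between 0.64 and 1.13 under the 13 alternatives and was past 2-fold only where CPM was averaged over cells. The shScr day 7 library was the low one of the 4, since both day 3 libraries lay at 35.6 to 36.6 CPM. Over time the log2 ratio of HSPB6 was thus -0.58 (-0.71 to -0.45) in shScr and 0.31 (0.20 to 0.43) in shAPC, and neither direction turned under any alternative. Shares were compared after thinning each cell to 2000 UMIs, which leaves out shallower cells. It left out 1402 of 2600 cells in shScr day 7 and 391 of 1478 in shAPC day 7. Of the remaining cells, 4.84% in shScr day 7 (3.70% to 6.21%) and 9.48% in shAPC day 7 (7.80% to 11.4%) had an HSPB6 UMI. The unthinned shares, over all kept cells, were 14.2% and 30.2%.

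HSP90AA1 was the other gene to stand apart at day 7. Its level was 353 CPM in shScr day 3, 415 in shAPC day 3, 543 (535 to 551) in shScr day 7 and 372 (365 to 379) in shAPC day 7. Here shScr day 7 was the high library and the other 3 lay lower. The log2 ratio of shAPC to shScr at day 7 was -0.55 (-0.58 to -0.51), under which 8.77% of all tested genes lay, and ran from -0.96 to -0.45 under the alternatives. Kept barcodes under 2000 UMIs held more HSP90AA1 than deeper cells in all 4 libraries (log2 1.22 to 1.63). HSP90AB1 (1.06 to 1.23), HSPB1 (0.65 to 1.22) and HSPA8 (0.38 to 0.82) were higher in these barcodes too. They made up 1402 of 2600 cells in shScr day 7 but only 1050282 of its 31230868 UMIs. Among cells of at least 10000 UMIs alone, thinned to that depth, the day 7 log2 ratio was -0.51 (-0.58 to -0.45).

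**Figure D2:**
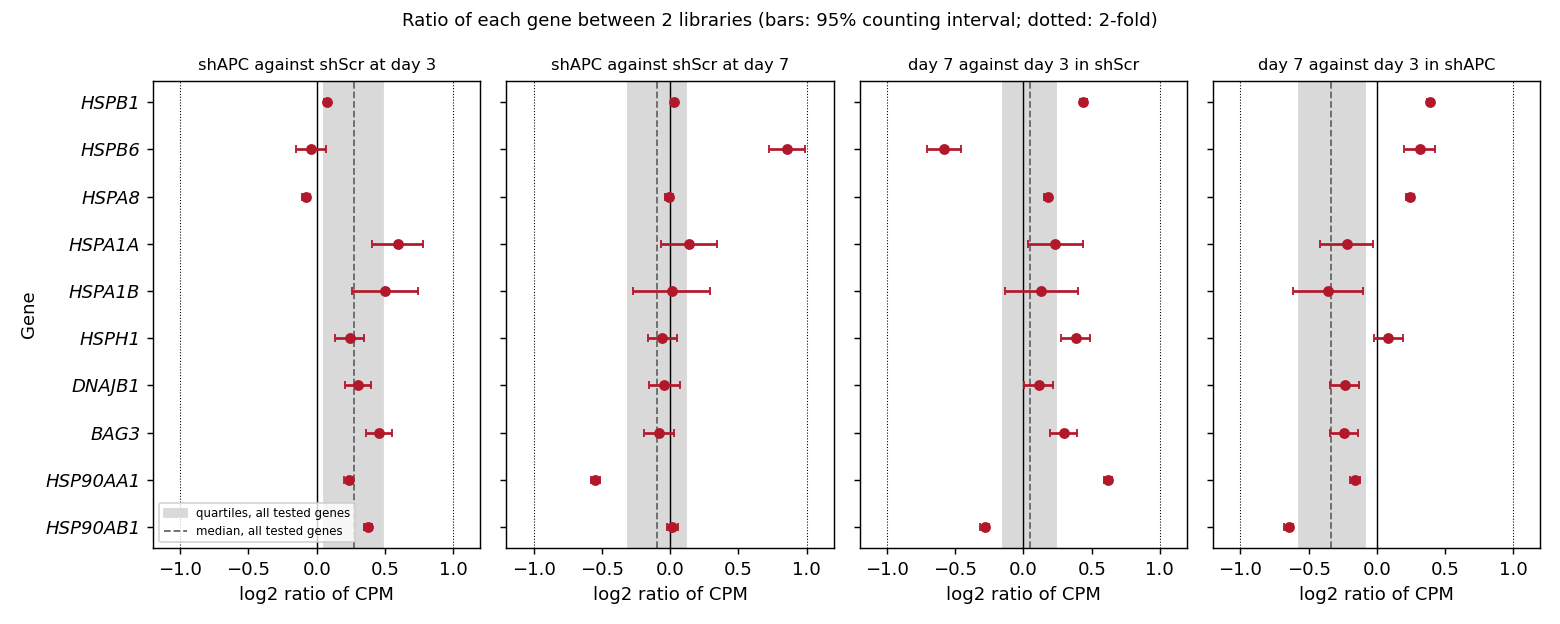
Log2 ratio of CPM of each gene in the 4 comparisons, with 95% counting intervals, the quartiles (grey) and median (dashed) of all tested genes, and dotted lines at 2-fold. No gene reaches 2-fold, the whole distribution of genes is shifted by 0.28 at day 3 and by -0.34 over time in shAPC, and HSPB6 (0.85) and HSP90AA1 (-0.55) stand apart at day 7.

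Over time the small heat shock protein HSPB1, also called HSP27, was by CPM the most alike between both arms. It was 761 CPM (752 to 770) in shScr day 3 and 1032 (1021 to 1044) in shScr day 7, and 802 (793 to 812) in shAPC day 3 and 1052 (1040 to 1064) in shAPC day 7. Both day 7 libraries lay above both day 3 libraries. The log2 ratios were 0.44 (0.42 to 0.46) in shScr and 0.39 (0.37 to 0.41) in shAPC, and higher than those of 91.9% and 96.6% of tested genes. HSPA8 was also higher at day 7 in both arms (0.18, 0.15 to 0.20, and 0.25, 0.22 to 0.28), and both genes kept these directions under all 13 alternatives. HSPH1 was 36.9 CPM in shScr day 3 and 48.1 in shScr day 7 (0.38, 0.28 to 0.49), and its interval in shAPC included 0 (0.08, -0.02 to 0.19). The likeness of HSPB1 between arms depends on the scaling, since relative to all genes it stood at 0.39 in shScr and 0.73 in shAPC. On that scale HSP90AB1 (-0.33 and -0.31) and DNAJB1 (0.06 and 0.11) were more alike between arms.

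The pair of HSP90 genes gave different ratios over time. HSP90AB1 was 439 CPM in shScr day 3 and 361 in shScr day 7 (log2 ratio -0.28, -0.32 to -0.25) and 571 in shAPC day 3 and 365 in shAPC day 7 (-0.65, -0.68 to -0.61). Averaging CPM over cells turned the value in shScr to 0.07, and none of the alternatives turned that in shAPC. HSP90AA1 had a log2 ratio of 0.62 (0.59 to 0.65) in shScr, above 97.5% of tested genes, and of -0.16 (-0.20 to -0.12) in shAPC, which became 0.14 with TMM scaling. A share within a library does not depend on its scaling: HSP90AB1 gave 55.4% (54.9% to 56.0%) of the UMIs of both genes in shScr day 3, 57.9% (57.4% to 58.4%) in shAPC day 3, 39.9% (39.4% to 40.5%) in shScr day 7 and 49.5% (48.9% to 50.2%) in shAPC day 7. The beta form was thus the major one at day 3 and the minor one in shScr day 7, and its share was 49.5% in shAPC day 7.

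None of the 8 genes passed 2-fold with time, either in shScr (1.12% of 4556 genes did) or in shAPC (5.83% of 5176 genes). BAG3 and DNAJB1 had log2 ratios of 0.29 (0.19 to 0.40) and 0.11 (0.01 to 0.22) in shScr, and of -0.24 (-0.34 to -0.14) and -0.23 (-0.34 to -0.13) in shAPC. In shAPC the median of all genes was -0.34, and with TMM or DESeq2 scaling both genes had values of 0.06 to 0.07.

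Among the other chaperones, taken from lists of related genes, no gene passed 2-fold in any of the 4 comparisons in the HSP70 co-chaperones (10 or 11 tested of 15), the HSP90 co-chaperones (9 or 10 of 10), the 8 subunits of the TRiC chaperonin, the mitochondrial chaperones (5 or 6 of 7), the heat shock factors with HSBP1 (2 of 4), the ER chaperones (7 or 8 of 9) and the relatives of HSP70 and HSP110 (1 of 8). The share of all genes that did was 4.29% and 2.56% between arms at day 3 and day 7, and 1.12% and 5.83% over time in shScr and shAPC, so that few or none would be past 2-fold in lists of this length at those shares. Averaging CPM over cells put CHORDC1, an HSP90 co-chaperone, past 2-fold at day 7 and over time in shScr, and the ER chaperones HSPA5, HSP90B1 and DNAJB9 over time in shScr. The medians of the HSP90 co-chaperones differed from those of all genes by 0.03 and 0.06 between arms at day 3 and day 7, and by 0.13 and -0.08 over time in shScr and shAPC. Those of the HSP70 co-chaperones lay above all genes by 0.19, 0.12, 0.09 and 0.07 in that order, and at day 3 all 11 tested had ratios above 0 and 8 of them above the all-gene median. The lower quartile of all genes at day 3 was 0.06, so that most genes lay above 0 as well. With TMM scaling the day 3 median of this list was 0.10, or 0.22 relative to all genes. HSF1 itself was 50.1 CPM in shScr and 59.0 in shAPC at day 3, and 56.2 in shScr and 48.5 in shAPC at day 7. CDC37, which brings kinases to HSP90, was 178, 233, 130 and 131 CPM in that order. Its log2 ratios over time, -0.45 in shScr and -0.83 in shAPC, had the sign of those of HSP90AB1. The co-chaperone PTGES3 (p23) was 141, 134, 168 and 130 CPM, with log2 ratios over time of 0.26 in shScr and -0.04 in shAPC.

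Of the other small heat shock proteins (2 tested of 7), CRYAB passed 2-fold. CRYAB, alpha-B crystallin, was 54.5 CPM in shScr day 3, 32.0 in shAPC day 3, 154 in shScr day 7 and 64.2 in shAPC day 7. At day 3 its log2 ratio of shAPC to shScr was -0.77 (-0.87 to -0.66), and at day 7 -1.26 (-1.34 to -1.19), where 1.77% of all genes were lower by 2-fold. Over time it was 1.50 (1.43 to 1.57) in shScr, where 0.329% of all genes were higher by 2-fold, and 1.01 (0.90 to 1.11) in shAPC, the latter under 2-fold once the pseudocount was added. With TMM or DESeq2 scaling CRYAB was past 2-fold in all 4 comparisons. Its levels also moved with the mitochondrial limit: barcodes at or above 5% held 53.4, 29.5, 199 and 30.0 CPM in the 4 libraries, so that with all deposited barcodes the day 7 log2 ratio was -1.78 in place of -1.25 on the scale with the pseudocount, and that over time in shAPC 0.59 in place of 0.98. At day 7 CRYAB and HSPB6 thus stood on opposite sides, while HSPB1 had a log2 ratio of 0.03 (0.00 to 0.05).

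**Figure D3:**
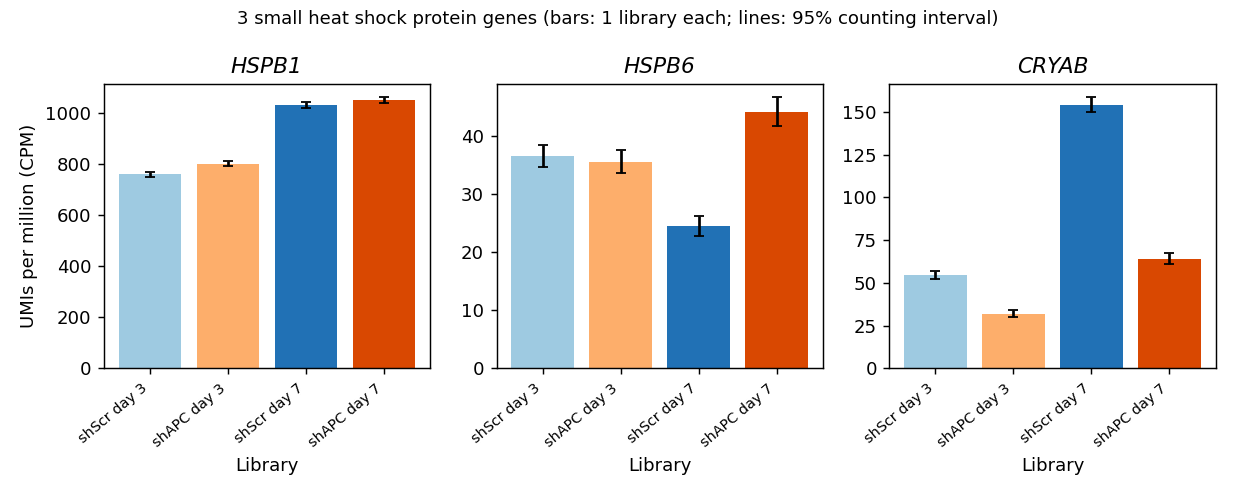
CPM of HSPB1, HSPB6 and CRYAB in the 4 libraries (1 bar per library, 95% Poisson intervals of counting error; each panel has its own linear axis from 0). In shScr day 7 HSPB6 is at its lowest (24.5 CPM) and CRYAB at its highest (154 CPM), and HSPB1 is higher in both day 7 libraries.

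Immediate early genes, which respond to growth factors and stress of many kinds within minutes to hours, were the list with the most genes past 2-fold. At day 3, 5 of the 8 tested were higher in shAPC, where 3.86% of all genes were: JUN at a log2 ratio of 1.14, EGR1 at 1.28, IER2 at 1.33, IER3 at 1.02 and ATF3 at 5.44. ATF3 reached 20 CPM only in shAPC day 3. At day 3 and over time in shAPC it was thus tested only through the library where it was high, and its calls there carry no weight of their own. The median of the list was 1.07 against 0.23 for the heat shock proteins, and 0.79 relative to all genes. The count depends on the scaling: with TMM or DESeq2 factors ATF3 alone was past 2-fold, and TMM gave 0.75 for JUN, 0.89 for EGR1, 0.92 for IER2 and 0.63 for IER3, with a list median of 0.82 relative to all genes. At day 7 the same list had 0 of 7 past 2-fold and a median of -0.08. In shAPC over time JUN (-1.10) and ATF3 (-3.73) were lower by 2-fold, as were 5.78% of all genes, and with TMM or DESeq2 scaling ATF3 alone.

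Cells with ATF3 were therefore looked at on their own, with a limit of 1 UMI after thinning to 10000 UMIs that was set after the values had been seen, since a limit of 3 UMIs left 0 to 17 cells per library. There were 45 such cells in shAPC day 3 and 27 in shScr day 7, and under 20 in the other 2 libraries, which are not given. In shAPC day 3 they held a mean of 2.20 HSPA8 UMIs against 5.68 in the other cells (log2 ratio -1.37, -1.67 to -1.08), and 0.933 against 0.456 DNAJB1 UMIs (1.03, 0.53 to 1.51). In shScr day 7 the values were 3.52 against 6.08 for HSPA8 (-0.79, -1.10 to -0.50) and 0.815 against 0.435 for DNAJB1 (0.91, 0.21 to 1.52). HSP90AA1 had a log2 ratio of -0.22 (-0.46 to 0.00) in shAPC day 3 and -0.43 (-0.73 to -0.15) in shScr day 7. HSPB1 had 0.20 (0.05 to 0.35) and 0.23 (0.06 to 0.40). Its variance over the mean between cells was 3.75 and 5.69 in these libraries, where Poisson counts give 1. The counting intervals of HSPB1 are therefore too narrow to give a direction. In the same libraries this factor was 4.24 and 5.54 for HSP90AA1, 2.94 and 2.92 for HSPA8, and 2.02 and 2.87 for HSP90AB1. Their intervals here are too narrow as well. BAG3 had 0.59 (0.05 to 1.09) and 0.38 (-0.42 to 1.07), HSPH1 0.34 (-0.35 to 0.96) and 0.90 (0.22 to 1.50), and HSP90AB1 0.09 (-0.10 to 0.27) and 0.31 (0.01 to 0.58), so that for these 3 the counting interval excluded 0 in only 1 library. HSPA1A, HSPA1B and HSPB6 gave intervals that included 0 in both libraries. ATF3 cells had been deeper before thinning, with a median of 86233 against 56491 UMIs in shAPC day 3 and 38051 against 28962.5 in shScr day 7, and the part of depth in these values was not tested.

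Cells that carried mitotic transcripts differed from the rest in HSP90AA1 and several other members. Cells of at least 10000 UMIs, thinned to that depth, were set apart when 3 or more of TOP2A, MKI67, CCNB1, CDC20, PLK1, AURKA, CENPF and CCNB2 had a UMI. This is a range and not a cell type: 21 to 50 cells per library had exactly 3 of the genes and 26 to 65 had exactly 2. The class held 18.8% (16.1% to 21.8%) of cells in shScr day 3, 20.8% (17.6% to 24.4%) in shAPC day 3, 24.3% (21.5% to 27.2%) in shScr day 7 and 15.3% (13.1% to 17.8%) in shAPC day 7.

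HSP90AA1 had a mean of 6.66 UMIs in these cells against 2.96 in the others of shScr day 3, 7.20 against 3.55 in shAPC day 3, 8.20 against 3.98 in shScr day 7 and 5.49 against 3.15 in shAPC day 7. The log2 ratios were 1.17 (1.06 to 1.28), 1.02 (0.90 to 1.14), 1.04 (0.96 to 1.13) and 0.80 (0.68 to 0.92). HSPA8 was higher too, by 0.33 to 0.80, and HSP90AB1 by 0.15 to 0.56, with counting intervals above 0 in all 4 libraries. Cells varied more than Poisson counts for HSPA8, the HSP90 genes, HSPB1 and HSPB6, so their intervals here are too narrow. The closest to 0, that of HSP90AB1 in shAPC day 7, was 0.01 to 0.28. HSPB1 was not: its values were 0.00, 0.00, -0.05 and -0.17. Only the last had a counting interval that excluded 0, at a variance over the mean of 6.22 in that library, so that no direction is given. HSPB6 was lower in the class in all 4 libraries (-0.26 to -0.79), though the interval in shScr day 3 included 0. DNAJB1 ratios were 0.37 to 0.60 and those of HSPH1 0.16 to 0.76, with an interval that included 0 in shAPC day 3 for both. The other 3 were less even: HSPA1B had 1.11 (0.23 to 1.94), -0.40, 0.46 and 0.86 (0.03 to 1.63), BAG3 0.89 (0.51 to 1.25), -0.24, 0.20 and 0.05, and HSPA1A 0.50, 0.26, 0.47 and -0.12, where intervals not given included 0.

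The day 7 difference between arms was present on both sides of this limit. HSP90AA1 had a log2 ratio of shAPC to shScr of -0.58 (-0.70 to -0.46) within the mitotic class and of -0.34 (-0.42 to -0.26) in the other cells. HSPB6 had 0.72 (0.09 to 1.35) and 0.74 (0.49 to 0.99), with intervals of counting error only, while its cells varied more than Poisson counts.

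**Figure D4:**
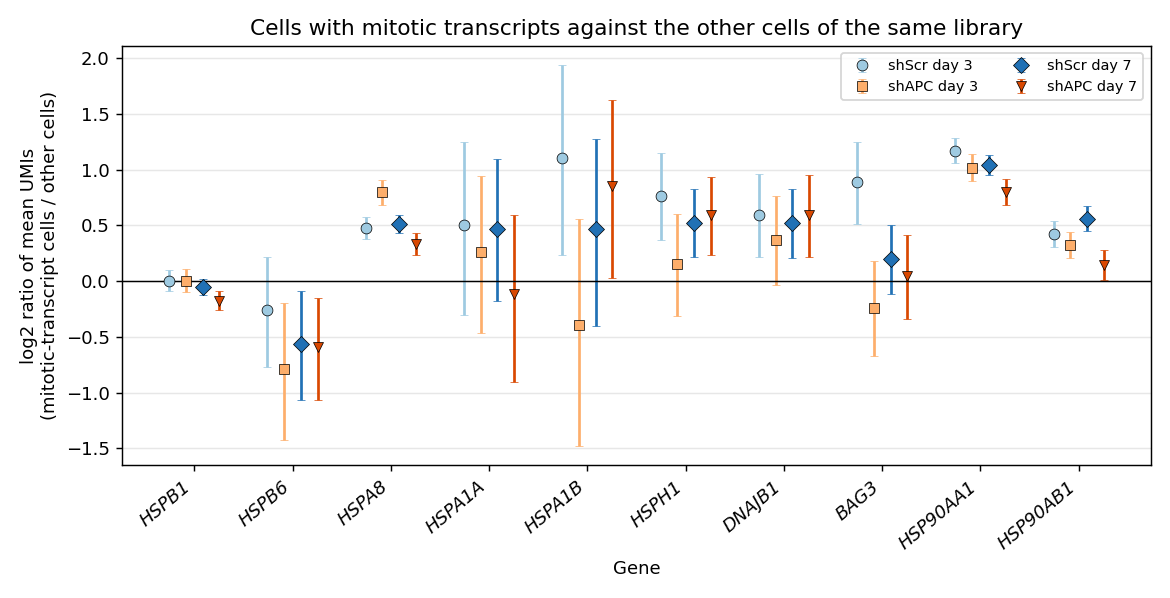
Log2 ratio of mean UMIs per cell between cells with at least 3 of 8 mitotic transcripts and the other cells of the same library, at 10000 UMIs per cell, with 95% counting intervals. HSP90AA1 lies at 0.80 to 1.17 in all 4 libraries, HSPB1 near 0, and HSPB6 below 0.

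The genes also differed in how evenly their molecules were spread over cells. At 10000 UMIs per cell the variance over the mean (Fano factor, 1 for Poisson counts) was 3.06 to 5.54 for HSP90AA1, 3.07 to 6.22 for HSPB1, 2.09 to 2.94 for HSPA8 and 1.71 to 2.87 for HSP90AB1. HSPB6 reached 1.68 to 2.42 at a mean of only 0.269 to 0.463 UMIs per cell, and the 5% of cells with most HSPB6 held 42.6% to 48.6% of its UMIs. At a like mean of 0.361 to 0.552 UMIs, HSPH1, DNAJB1 and BAG3 had Fano factors of 0.99 to 1.42, and their top 5% of cells held 23.3% to 31.2%. HSPA1A ranged from 1.02 to 1.33 and HSPA1B from 0.97 to 1.10. Their means were 0.0675 to 0.174 UMIs, against 7.72 to 9.92 for HSPB1. At equal relative spread the factor rises with the mean, so it does not rank genes of unlike level. No cell held more than 5 HSPA1A UMIs or 2 HSPA1B UMIs at this depth.

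**Figure D5:**
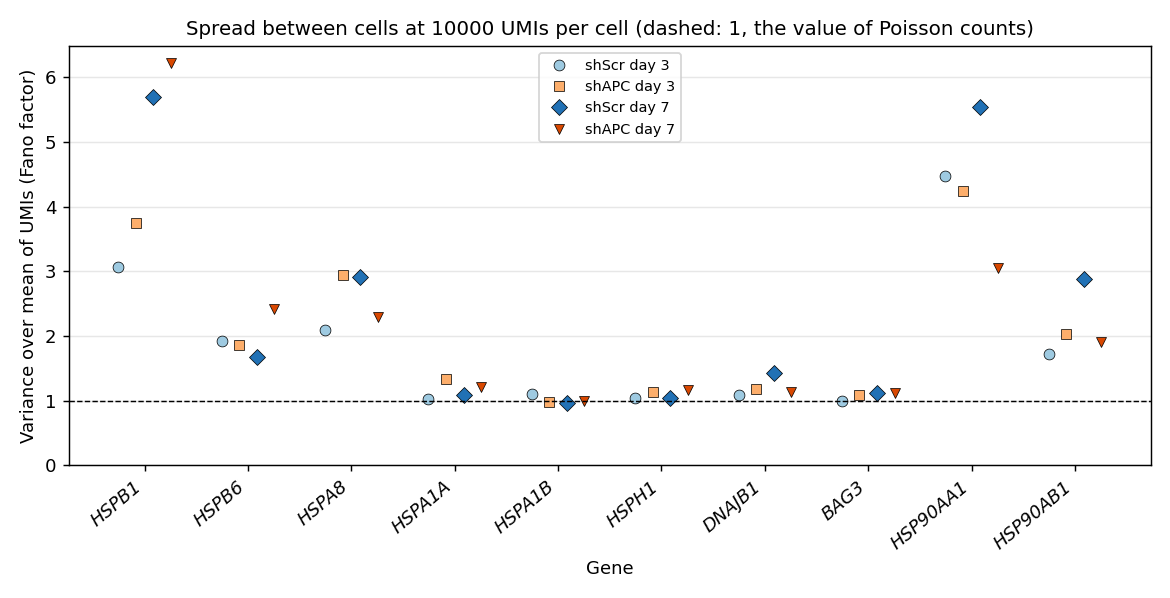
Variance over mean of UMIs per cell (Fano factor) of each gene in the 4 libraries, in cells thinned to 10000 UMIs; the dashed line marks 1, the value of Poisson counts. HSPB1 and HSP90AA1 lie at 3.06 or above in every library, HSPB6 at 1.68 to 2.42, and HSPH1, BAG3, HSPA1A and HSPA1B at 0.97 to 1.33.

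Shares of cells with a UMI followed the levels. Thinning to 2000 UMIs left out the shallower cells, 217, 115, 1402 and 391 in the 4 libraries. Among the remaining cells, HSPB1 was found in 74.6% to 81.1%, HSPA8 in 59.4% to 65.5%, HSP90AB1 in 44.9% to 65.5% and HSP90AA1 in 45.6% to 54.4%, each over the 4 libraries. HSPH1, DNAJB1 and BAG3 were found in 5.94% to 9.02%, HSPA1A in 1.56% to 2.82% and HSPA1B in 1.29% to 1.93%. Without thinning, HSPA1A was found in 25.4%, 37.9%, 11.2% and 19.7% of cells in the 4 libraries, an order that follows the depth per cell. No cell type known to lack these genes was set apart in the culture, and the part of free RNA in the low shares was not tested.

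Across cells of at least 10000 UMIs the closest pair was HSP90AA1 with HSP90AB1, with Pearson r of 0.35 to 0.57 over the 4 libraries, followed by HSP90AA1 with HSPB1 (0.30 to 0.44) and HSPA8 with HSP90AB1 (0.26 to 0.41). HSPA1A and HSPA1B had r of 0.09 to 0.22, at means of only 0.0675 to 0.174 UMIs per cell after thinning to 10000 UMIs. Counting noise at such low counts holds r near 0, so r does not rank pairs of unlike level. These values describe 576 to 927 cells of 1 library each, which share depth and cell state.

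The limit on mitochondrial UMIs bore on some members. Barcodes at or above 5% had log2 ratios to the kept cells of 0.64, -0.08, 0.21 and 0.65 for HSPA1A in the 4 libraries. For HSPB6 they were 0.91, 0.50, 0.33 and -0.20 in that order. For HSP90AA1 they were 0.26, 0.10, -0.23 and -0.03.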

How the data were processed

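Cells were profiled by droplet 3′ single-cell RNA-seq (10x Genomics; v2 in the labels, V3 in the methods), in 4 libraries. The authors aligned reads to hg38 with Cell Ranger and deposited raw UMI counts per gene and barcode. Per the file headers the version was 3.0.2 for both shScr and 3.0.0 for both shAPC libraries, so version and shRNA cannot be told apart. The labels call the virus retroviral and the methods lentiviral.

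Kept barcodes had 200 or more genes, 500 or more UMIs and a mitochondrial share under 5%. Counts were summed per library and scaled to CPM by total UMIs, which were 39797418 and 34944674 at day 3 and 31230868 and 28451455 at day 7 (shScr, then shAPC). The 95% intervals are exact Poisson for levels, Clopper-Pearson for shares and conditional binomial for ratios, and cover counting error only, also within cell classes, where cells vary more than Poisson counts. With 1 library per group nothing was tested between groups. A gene was called at a log2 ratio of 1 or more either way, with a pseudocount of 1 CPM and at least 20 CPM in 1 of 2 libraries. Relative values are ratios on that scale minus the median over all tested genes. The ratio calculation was tested on simulated data. Thinning drew UMIs without replacement with a fixed seed and left out cells below the chosen depth. No doublets were removed, and no batch correction or imputation was applied.

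The 10 genes and the lists were chosen with earlier results of these data known. Named genes are the 10 members, APC, the markers, and list genes among the 2 with most UMIs or past 2-fold. The genes most alike to the inducible members, also part of the rule, are not reported here. HSPA6 was named after its values were seen. The genes that another averaging put past 2-fold were named after their values were seen. Alternatives were TMM (edgeR 4.0.16) and DESeq2 1.42.0 size factors, other totals, centring, cell limits, averaging, pseudocount, filter and thinning depth. Promoters and genes came from RefSeq (GRCh38.p14) and GENCODE 44. Python 3.11.15 with scipy 1.17.1 was used.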

Additional observations from a re-analysis of the deposited data

Results flagged for a closer look

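For 5 genes the counting intervals put the arms or the days on opposite sides of 0. Each value is the log2 ratio of shAPC to shScr at day 7 minus that at day 3, and with 1 library per group the difference was not tested. Over 5300 genes of at least 20 CPM in a library this change had a median of -0.34 and quartiles of -0.59 and -0.10.

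HSPB6 changed by 0.90 (95% counting interval 0.73 to 1.07), above 99.8% of those genes, as it was lower with time in shScr and higher in shAPC. HSP90AA1 had a change of -0.78 (-0.83 to -0.73), above 14.0% of them, with shAPC above shScr at day 3, a direction that TMM and DESeq2 scaling turned, and below it at day 7.

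BAG3 had a change of -0.54 (-0.68 to -0.39), HSPA1A of -0.45 (-0.73 to -0.18) and DNAJB1 of -0.34 (-0.49 to -0.20). These 3 were higher with time in shScr and lower in shAPC by CPM, the latter turned by TMM and DESeq2 scaling, and lay at -0.19, -0.08 and 0.00 relative to the median change of all genes.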

How the results depend on the processing

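Of 52 counts of members past 2-fold (4 comparisons under 13 alternatives, 10 planned and 3 chosen after seeing the data), 51 stayed at 0. Where CPM was averaged over cells the day 7 count was 1, HSPB6. Of 40 log2 ratios, 18 never changed sign under these alternatives and 22 did under at least 1 of them, in 59 of 520 values, and the cause was not tested. TMM scaling moved the all-gene median at day 3 from 0.28 to -0.13. The all-gene counts that give the background shares moved with it, from 222 (200 higher, 22 lower) to 150 (83, 67) at day 3 and from 302 (3, 299) to 154 (28, 126) over time in shAPC. DESeq2 size factors gave 144 at day 3. The mean over cells gave 258 in place of 117 at day 7 and 173 in place of 51 over time in shScr, and no filter on low genes gave 528, 299, 115 and 603 in the order of the comparisons. Of 120 shares of cells at other depths 116 left the interval at 2000 UMIs. No paired analysis was possible because the groups compared share fewer than 2 replicate numbers. A model over all 4 libraries with shRNA and day as terms was not run.

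HSPA1A and HSPA1B, at 203 to 551 UMIs per library, were too low for calls at the 20 CPM limit, and a spread between cultures could not be estimated.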
